A study of Rattus norvegicus with 4 samples.

Results

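The transcripts of the shuttles that carry the reducing equivalents of cytosolic NADH into mitochondria were examined in the soleus of unloaded and freely moving rats. The members were the 7 genes Gpd1, Gpd2, Mdh1, Mdh2, Got1, Got2 and Slc25a11, taken by gene symbol. They were chosen with earlier results of these data known, so the set is not blind to the values. Every probe set (a group of short array probes against 1 transcript) annotated to one of them alone was used, whatever its values. They had 13 of the 8740 probe sets that were not array controls, and 7 of the 4736 genes with a probe set of their own. The unloaded group was 2 pools of soleus RNA from female rats kept off their hindlimbs for 10 h per day over 11 days, and the control group was 2 pools from female rats that stood and walked normally in their cages over the same period. Every array, an Affymetrix expression chip, carried RNA combined from 4 to 5 animals, and the labels name no strain, age or genetic change for either group. A replicate is therefore a pool, with n = 2 per group, and the spread between single animals was not seen.

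Glycolysis reduces NAD+ to NADH in the cytosol, and the inner mitochondrial membrane does not let NADH through. In the glycerol phosphate shuttle the cytosolic enzyme Gpd1 uses NADH to make glycerol 3-phosphate from dihydroxyacetone phosphate, and Gpd2, on the outer face of the inner membrane, oxidises it again and hands the electrons to ubiquinone. In the malate-aspartate shuttle the cytosolic malate dehydrogenase Mdh1 loads the electrons onto malate, the carrier Slc25a11 exchanges malate for 2-oxoglutarate, and Mdh2 frees them as NADH in the matrix, while the transaminases Got1 (cytosol) and Got2 (matrix) return the carbon through aspartate. Fast glycolytic fibres are known for high Gpd1 activity.

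Values are MAS5 signals on a linear scale in arbitrary units, and their trimmed mean (without the lowest and highest 2%) was 150.2 or 150.3 on each of the 4 arrays. A signal depends on its probes as well as on the transcript, so differences between groups are given within a probe set, and the order of brightness between probe sets says nothing of transcript amounts. Log2 differences are unloaded minus control on the scale log2(signal + 9), which understates changes of dim probe sets, and limma's p-values were adjusted (Benjamini-Hochberg) across the 5257 probe sets that entered the test. A probe set was called at an adjusted p under 0.05. The number of arrays limits the precision. Log2 signals of the tested probe sets correlated at 0.988 between the unloaded pools and at 0.987 between the control pools, against 0.973 to 0.974 across groups. The RNA had the marks of skeletal muscle, with Acta1, skeletal actin, at 7828 to 9160 in unloaded and 8413 to 8664 in control pools. Myh7, the slow myosin heavy chain, read 9534 to 10728 in unloaded and 10907 to 11198 in control pools. Fast-fibre transcripts were bright as well, such as Atp2a1 at 3810 and 4026 in unloaded and 2549 and 2191 in control pools. These signals do not give the share of each fibre type. The ratio of the array's 3′ to 5′ Gapdh control probe sets, a sign of RNA integrity, was 0.963 and 0.968 in unloaded pools and 0.949 and 1.01 in control pools.

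Gpd1 was the member that changed. Of the 10 shuttle probe sets that were bright enough to be tested, 1 rose with unloading, 0 fell and 9 did not pass the limma test, against 5.25% of all tested probe sets called in either direction (2.59% higher and 2.66% lower in unloaded pools). The other 3 of the 13, 2 of Gpd2 and 1 of Got2, had mean signals below the filter of 21.0, which is the 40th percentile. At an unadjusted p under 0.05, 2 of the 10 were higher and 0 lower, which is near the share of all tested probe sets (20.8%, 10.3% higher and 10.5% lower). Counted by the brightest probe set of each gene, 1 of 7 genes rose and 6 did not pass. The median log2 difference of the 10 was 0.12, beside 0.00 over all tested probe sets, and 8 of the 10 differences were above 0, beside 50.3% of all tested probe sets. The 10 are not independent, since they read 7 genes.

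**Figure D1:**
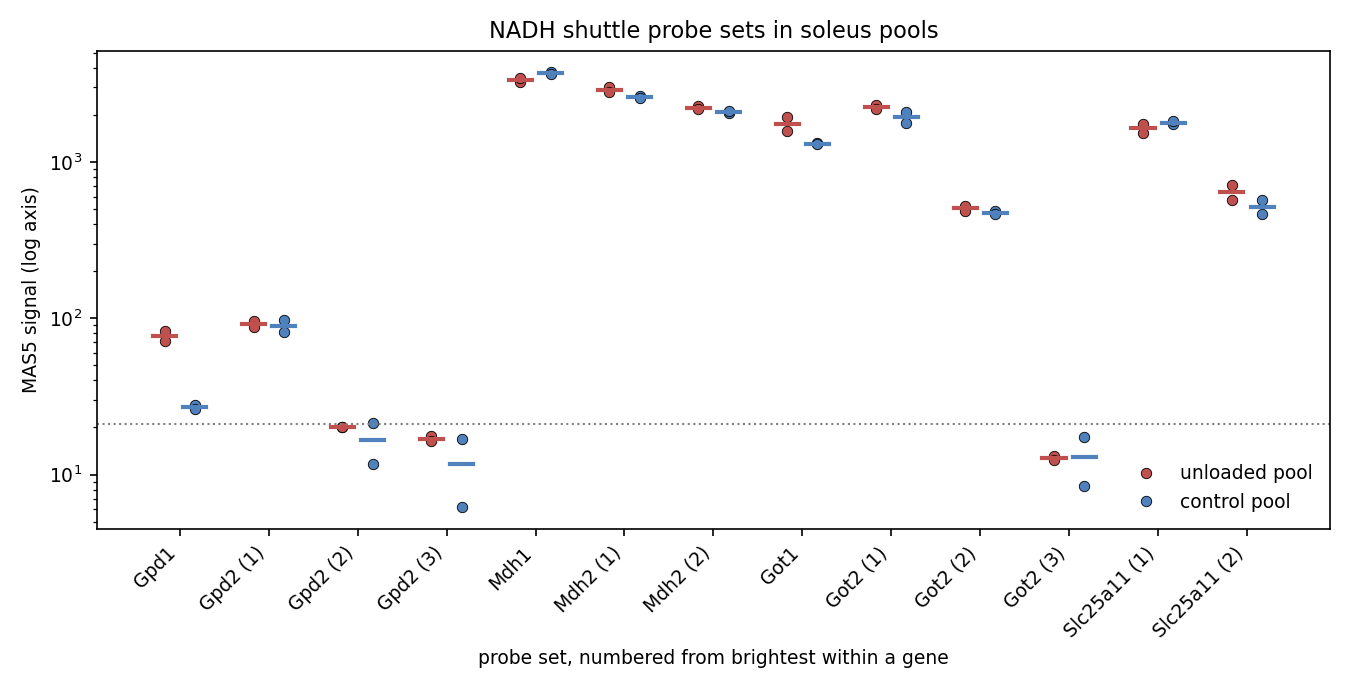
MAS5 signal (log axis) of all 13 shuttle probe sets in the 2 unloaded pools (red) and the 2 control pools (blue), with points for pools and bars for group means. Probe sets of a gene are numbered from the brightest, and the dotted line marks the signal of 21.0 used as the filter on mean signals. Gpd1 stands apart between the groups, while the group means of each malate-aspartate probe set lie close together.

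In the glycerol phosphate shuttle, the cytosolic dehydrogenase Gpd1 had signals of 83.2 and 71.5 in the unloaded pools, against 27.9 and 26.2 in the control pools (probe set AB002558_at). Both unloaded pools lay well above both control pools, and the ratio between an unloaded and a control pool ran from 2.56 to 3.18. Gpd1 averaged 77.4 ± 8.27 in unloaded and 27.1 ± 1.20 in control soleus (SD, n = 2 pools each), a log2 difference of 1.26 (SE 0.16, adjusted p = 0.00534 by limma). This is 2.39-fold on the offset scale, with a 95% interval from 1.84-fold to 3.11-fold, and 2.86-fold as a plain ratio of means. Only 18 of the 5257 tested probe sets had a larger positive log2 difference. The control signals were near the filter of 21.0, and detection calls were not used here, so whether they count as present is not known. In bulk muscle RNA, a change in the share of cells that carry a transcript cannot be told apart from a change in its amount per cell.

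The call on Gpd1 depended on which arrays were used. Without control pool 2 the log2 difference was 1.22 (limma adjusted p = 0.0575), and without unloaded pool 1 it was 1.16 (limma adjusted p = 0.0822). Without control pool 1 or unloaded pool 2 it was 1.29 and 1.36 and passed (limma adjusted p = 0.0429 and 0.0496). The size of the difference thus stayed between 1.16 and 1.36 whichever array was left out, while its side of the threshold did not.

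Gpd2, the mitochondrial partner that reoxidises glycerol 3-phosphate, did not pass. Its brightest probe set (U83879_at) gave 96.2 and 88.2 in unloaded pools, against 97.7 and 81.1 in control pools, so the groups overlapped. The log2 difference was 0.045 (SE 0.15, limma adjusted p = 0.910), and its 95% interval ran from 0.817-fold to 1.30-fold. The sign of so small a difference is not settled, being -0.077 without control pool 2 and -0.013 without unloaded pool 1. The other Gpd2 probe sets, both designed on the same sequence entry, were too dim to be tested. The brighter of them (X78593_g_at) read 20 in both unloaded pools, against 11.7 and 21.5 in control pools, and the dimmer (X78593_at) read 17.6 and 16.3, against 6.20 and 17 in control pools. Both were lowest in control pool 1 and overlapped between the groups.

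Transcripts of the malate-aspartate shuttle gave small differences, and none of their 8 tested probe sets passed. The limma adjusted p-values ran from 0.0889 to 0.669, 1 of the 8 had an unadjusted p under 0.05 (Got1, higher; 20.8% of all tested probe sets did) and the log2 differences ran from -0.15 to 0.41 with a median of 0.12. Both unloaded pools lay above both control pools for 6 of the 8 probe sets, below them for 1, and overlapped them for 1. Over all tested probe sets both unloaded pools lay above both control pools in 25.5% and below them in 25.3%, so this mild criterion separated the groups in 50.8%.

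Got1, the cytosolic aspartate aminotransferase, came nearest to the threshold. It read 1937 and 1569 in unloaded pools, against 1324 and 1298 in control pools (J04171_at). Both unloaded pools were higher, and they differed more from each other than the control pools did. The means were 1753 ± 260 in unloaded and 1311 ± 18.5 in control soleus (SD, n = 2 pools each), with a log2 difference of 0.41 (SE 0.11, limma adjusted p = 0.0889) and a 95% interval from 1.11-fold to 1.59-fold. Without unloaded pool 1, the higher one, the difference was 0.26, and without unloaded pool 2 it was 0.56. Among probe sets with a mean signal over the 60th percentile, where fewer were tested, Got1 passed (limma adjusted p = 0.0484).

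Got2, the matrix aminotransferase, had 3 probe sets. The brightest (M18467_at) read 2324 and 2194 in unloaded pools, against 2098 and 1787 in control pools, with a log2 difference of 0.22 (SE 0.10, limma adjusted p = 0.275). The second (rc_AA892012_g_at) read 526 and 488 in unloaded pools, against 486 and 464 in control pools, with a log2 difference of 0.09 (SE 0.10, limma adjusted p = 0.669). In both the unloaded pools were the higher ones by a small margin that did not pass. The third (rc_AA892012_at), from the same sequence entry as the second, was too dim to be tested, at 13.2 and 12.4 in unloaded pools and 17.5 and 8.50 in control pools.

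The malate dehydrogenases gave small differences of opposite sign. Mdh1, the cytosolic form, read 3257 and 3426 in unloaded pools, against 3740 and 3673 in control pools (AF093773_s_at), and was the shuttle probe set with both unloaded pools below both control pools. Its log2 difference was -0.15 (SE 0.08, limma adjusted p = 0.355), and the 95% interval ran from 0.789-fold to 1.03-fold. Mdh2, the matrix form, read 3007 and 2788 in unloaded pools, against 2654 and 2563 in control pools, on its brighter probe set (rc_AI010480_g_at). The log2 difference there was 0.15 (SE 0.09, limma adjusted p = 0.374). The second Mdh2 probe set (rc_AI010480_at), designed on the same sequence entry and thus no independent reading, read 2273 and 2170 in unloaded pools, against 2045 and 2119 in control pools, with 0.09 (SE 0.09, limma adjusted p = 0.602). None of these 3 probe sets passed, though in each the groups did not overlap.

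Slc25a11, the 2-oxoglutarate and malate carrier, was read differently by its probe sets. The brighter (U84727_at) gave 1538 and 1762 in unloaded pools, against 1748 and 1816 in control pools, with overlapping groups and a log2 difference of -0.11 (SE 0.10, limma adjusted p = 0.584). The dimmer (rc_AA859975_at) gave 713 and 574 in unloaded pools, against 567 and 464 in control pools, with a log2 difference of 0.31 (SE 0.14, limma adjusted p = 0.255). Since neither passed and their signs differ, no direction can be given for the carrier.

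**Figure D2:**
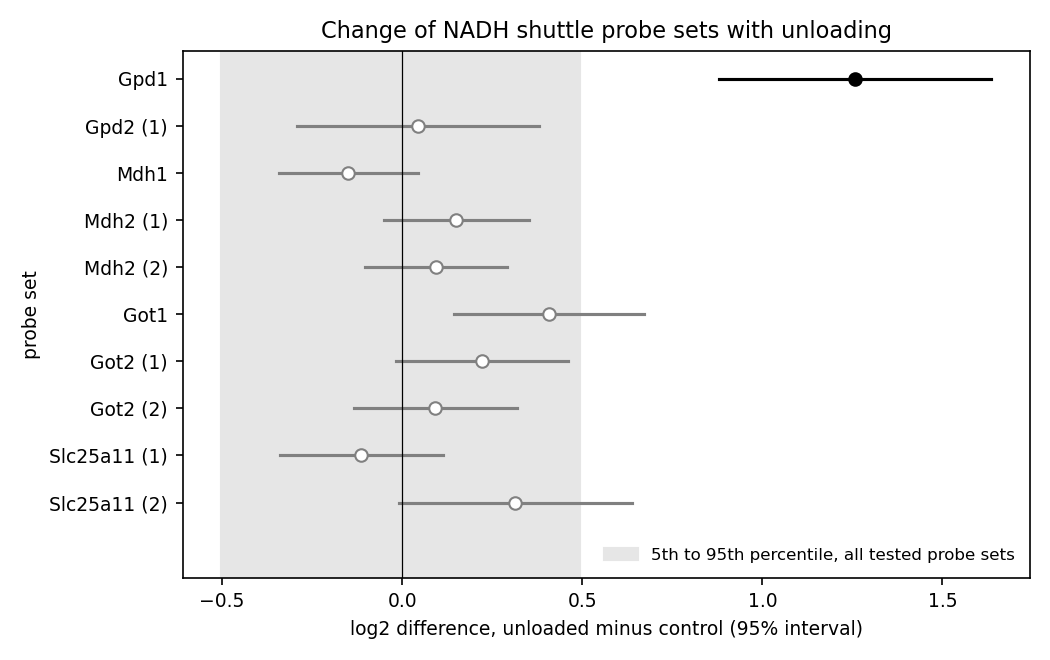
Log2 difference (unloaded minus control) of the 10 tested shuttle probe sets with 95% intervals from limma. Filled points passed an adjusted p of 0.05, and the grey band spans the 5th to 95th percentile of all 5257 tested probe sets (-0.50 to 0.49). Gpd1 at 1.26 lies outside the band, and the other 9 points lie inside it.

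The enzymes come in cytosolic and mitochondrial pairs, which allows the change of one to be set against that of its partner within each pool, free of array scaling. For each pair the log2 difference, cytosolic minus mitochondrial, was expressed relative to the control mean. For Gpd1 over Gpd2 it was 1.25 and 1.17 in unloaded pools, against -0.09 and 0.09 in control pools, a mean shift of 1.21. For Mdh1 over Mdh2 it was -0.39 and -0.21 in unloaded pools, against -0.01 and 0.01 in control pools, a mean shift of -0.30. For Got1 over Got2 it was 0.30 and 0.08 in unloaded pools, against -0.10 and 0.10 in control pools, with a mean shift of 0.19 and overlapping groups. The groups thus separated for the Gpd and Mdh pairs and overlapped for the Got pair. Separation is a mild criterion, met by 50.8% of all tested probe sets taken singly, and no such share was worked out for pairs. Neither Mdh1 nor Mdh2 passed the limma test by itself. Exact two-sided permutation tests gave p = 0.333 for Gpd, 0.333 for Mdh and 0.667 for Got (0.5, 0.5 and 0.667 adjusted over the 3 pairs). With 2 pools against 2, 0.333 is the smallest p this test can give, so it could not pass.

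**Figure D3:**
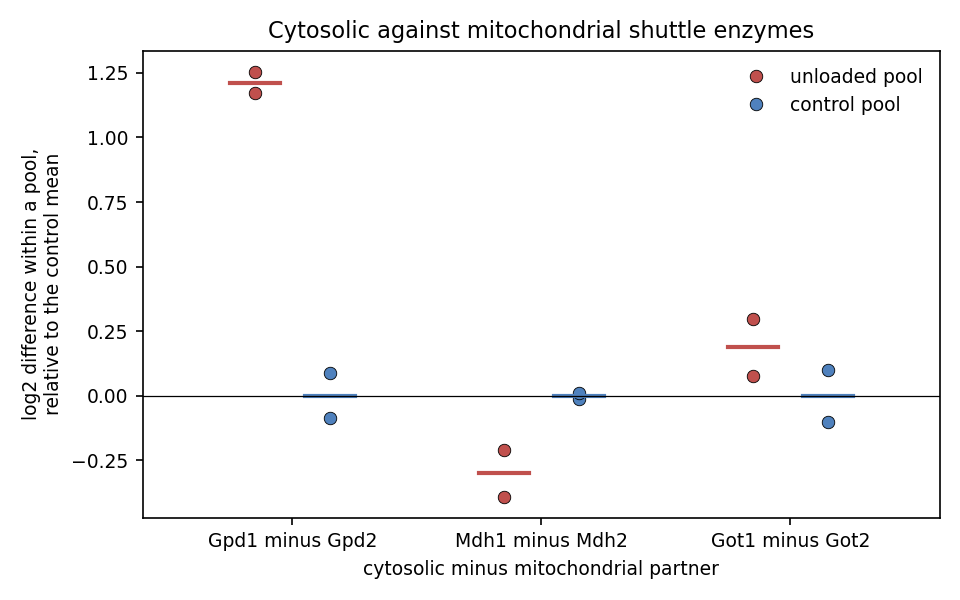
Log2 signal of the cytosolic minus the mitochondrial partner within each pool, relative to the control mean, on the brightest probe set of each gene. Points are pools (unloaded red, control blue) and bars are group means. The unloaded Gpd points lie 1.17 and 1.25 above the control mean, the Mdh points lie below it, and the Got points overlap the control pools.

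The genes around the shuttles were taken from a list of 35, of which 20 had a probe set of their own and 17 were tested on their brightest probe set. Of these 1 rose, 0 fell and 16 did not pass by limma, beside 5.25% of all tested probe sets called. At an unadjusted p under 0.05, 4 were higher and 1 lower (20.8% of all tested probe sets), and the median log2 difference of the 17 was 0.00. The aspartate-glutamate carriers Slc25a12 and Slc25a13, which complete the malate-aspartate shuttle, and Gpd1l, a relative of Gpd1, had no probe set of their own. Of the other carriers of shuttle metabolites on the inner membrane, 2 were tested and did not pass, the dicarboxylate carrier Slc25a10 at 0.00 (SE 0.12, limma adjusted p = 0.996) and the citrate carrier Slc25a1 at 0.23 (SE 0.18, limma adjusted p = 0.527).

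Enzymes that make or use cytosolic NADH, or supply triose phosphate to Gpd1, did not pass in 4 of 4 tested cases. Aldoa, the muscle aldolase that yields dihydroxyacetone phosphate, read 5785 and 6696 in unloaded pools, against 5010 and 5019 in control pools, with a log2 difference of 0.31 (SE 0.10, limma adjusted p = 0.121). Ldhb, the lactate dehydrogenase subunit typical of oxidative muscle, gave 0.00 (SE 0.09, limma adjusted p = 0.987). Gapdh, which produces the NADH of glycolysis, was read by 3 control probe sets that were left out of the fit and not tested. The 5′ one gave 6591 and 7088 in unloaded pools, against 6446 and 6577 in control pools, with both unloaded pools higher. The middle one gave 5998 and 6390 in unloaded pools, against 5943 and 6366 in control pools, and the 3′ one gave 6345 and 6857, against 6120 and 6643 in control pools, with overlapping groups in both.

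Among 11 tested genes that use or exchange shuttle metabolites, 1 rose and 10 did not pass, beside 2.59% of all tested probe sets called higher. The median log2 difference of the 11 was -0.02. Slc16a3, the lactate exporter typical of glycolytic fibres, read 121 and 95.5 in unloaded pools, against 49.3 and 45.6 in control pools, and rose by 1.05 on the log2 scale (SE 0.16, limma adjusted p = 0.0106). That call held without unloaded pool 2 and was lost without control pool 1, control pool 2 or unloaded pool 1 (limma adjusted p = 0.0681, 0.0814 and 0.114), with log2 differences of 0.89 to 1.21. Slc16a1, the lactate carrier of oxidative fibres, gave 0.44 (SE 0.11, limma adjusted p = 0.0605) on its brighter probe set and 0.21 (SE 0.10, limma adjusted p = 0.296) on the other. Cs, the citrate synthase that takes up oxaloacetate in the matrix, gave 0.41 (SE 0.11, limma adjusted p = 0.0714). Ldhd, a mitochondrial D-lactate dehydrogenase, gave -0.44 (SE 0.16, limma adjusted p = 0.176). Lower values that did not pass were also those of Gpt at -0.25 (SE 0.11, limma adjusted p = 0.241), Pc at -0.29 (SE 0.18, limma adjusted p = 0.392) and Me1 at -0.20 (SE 0.10, limma adjusted p = 0.303). Both unloaded pools lay below both control pools for each of them, as in 25.3% of all tested probe sets. Dimmer Me1 probe sets that were tested gave -0.03, -0.27 and -0.29 and did not pass either. The dimmest, not tested, read 10.4 and 10.2 in unloaded pools, against 6 and 10 in control pools. Gpam, the mitochondrial acyltransferase that draws glycerol 3-phosphate into lipid, gave 0.06 (SE 0.10, limma adjusted p = 0.808), and its 4 dimmer probe sets did not pass either.

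Some fast-fibre transcripts were higher in the same pools as Gpd1. Of 9 tested genes of a fast-fibre list, 5 rose, namely Tnni2, Tnnt3, Myl11, Atp2a1 and Myh2, beside 2.59% of all tested probe sets called higher. The other 4 did not pass. On the log2 scale the fast myosin heavy chains gave -0.041 (Myh1, SE 0.21) and 0.15 (Myh4, SE 0.21). The calcium-binding Pvalb gave -0.14 (SE 0.19) and the calcium store protein Casq1 0.19. Myh4, at 22.2 to 33.5 on the 4 arrays, and Pvalb, at 27.8 to 37.8, were near the filter of 21.0. Myh1 was also dim, at 57.4 to 84.4, so moderate changes of Myh1, Myh4 and Pvalb could not be judged. The summed signal of all 9 genes was 15570 and 15676 in unloaded pools, against 11155 and 10030 in control pools. That sum is set by the bright probe sets, and Myh1, Myh4 and Pvalb add little to it. The median of the 9 was 0.63 on the log2 scale. With 1 array left out, 5 of the 9 genes passed when it was control pool 1, 1 when it was control pool 2, and 0 when it was either unloaded pool, while the log2 differences of the 5 stayed between 0.42 and 1.24. Of 5 slow-fibre genes tested on their brightest probe set, 0 passed by limma (0 also at an unadjusted p under 0.05). Their summed signal was 33909 and 37433 in unloaded pools and 36215 and 35611 in control pools. The probe sets of Atp2a2 disagreed, the brightest giving 0.17 and dimmer ones 0.16, 0.29 and -0.28 on the log2 scale, and none passed. The part of fibre type in the difference of Gpd1 was not tested.

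Adipocytes are another rich source of Gpd1, and its markers were examined beside it. Of 5 tested adipocyte genes 0 passed by limma, with 1 higher and 1 lower at an unadjusted p under 0.05 (20.8% of all tested probe sets). Their summed signal over 7 genes with a probe set was 1796 and 2135 in unloaded pools, against 1872 and 2119 in control pools. Without Lep, the adipocyte hormone leptin, the sum was 1050 and 1220 in unloaded pools, against 1007 and 1127 in control pools. The groups overlapped in that sum. The bright Lep signal rested on 1 probe set, at 746 and 915 in unloaded pools, against 866 and 992 in control pools. Dimmer Lep probe sets read only 24.9 to 43.2 and 10.3 to 16.3 on the 4 arrays, so whether Lep was well expressed is not settled. Plin1, which coats the adipocyte lipid droplet, was dim at 5.80 and 12.9 in unloaded pools and 19.5 and 19.3 in control pools, and Cfd, the secreted adipsin, read 109 and 106 in unloaded pools, against 135 and 209 in control pools. Fabp4, a fatty acid binding protein of adipocytes that endothelium also expresses, read 393 and 441 in unloaded pools, against 318 and 351 in control pools, and the lipase Lipe read 516 and 621 in unloaded pools, against 493 and 510 in control pools. The unloaded pools thus lay below the control pools for Plin1 and Cfd and above them for Fabp4 and Lipe, and those of Lep and the adipogenic factor Pparg overlapped them. In liver, a further tissue with much Gpd1, albumin is a defining transcript, and the brightest Alb probe set stayed between 5.20 and 9.10 on the 4 arrays. The other 3 listed liver genes were above the filter, and 0 of them passed by limma. Serpina1 read 52.6 and 54.4 in unloaded pools, against 48.6 and 40.8 in control pools, so both unloaded pools were higher. Apoa1 (30.7 and 30.4, against 41.7 and 28.7) and Ttr (26.7 and 53.4, against 27 and 43.5) overlapped between the groups. Blood markers were somewhat higher in unloaded pools, with Hbb and the erythroid enzyme Alas2 summing to 5132 and 5035, against 4256 and 4508 in control pools. Of these 2 genes 0 passed by limma, and 2 were higher at an unadjusted p under 0.05 (10.3% of all tested probe sets were). The part of blood in the shuttle values was not tested.

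**Figure D4:**
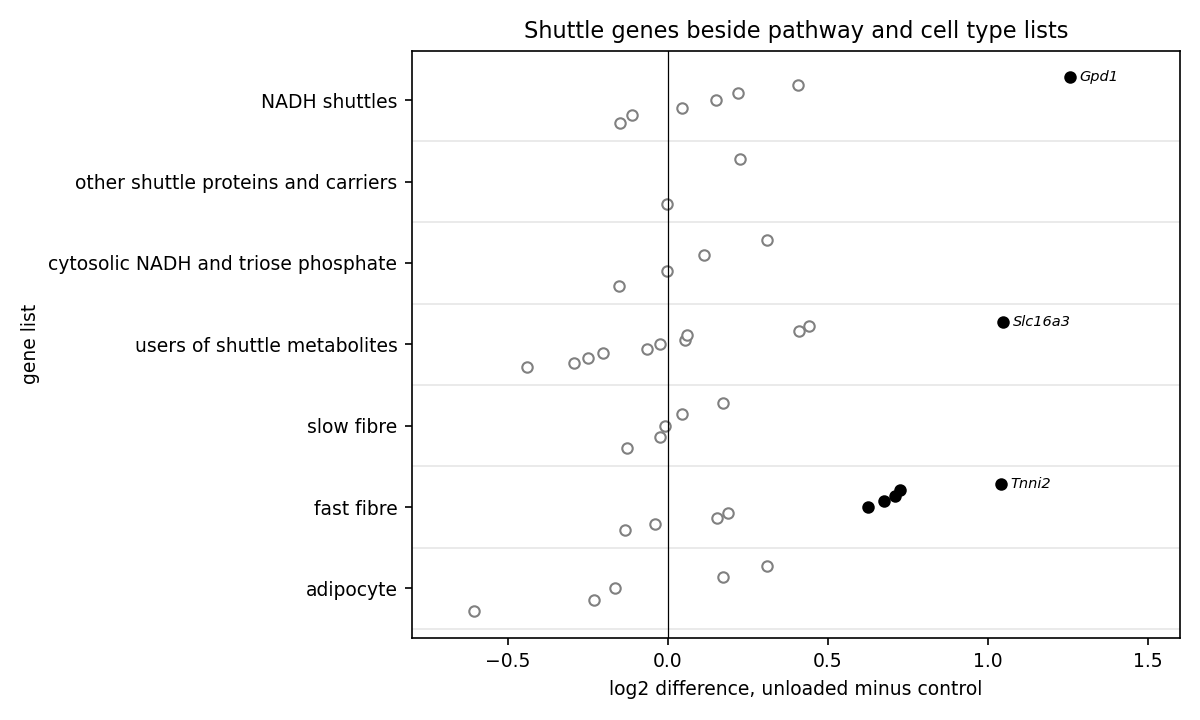
Log2 difference (unloaded minus control) of the brightest tested probe set of each gene in the shuttles, in 3 lists of neighbouring genes and in slow-fibre, fast-fibre and adipocyte lists. Filled points passed an adjusted p of 0.05. Besides Gpd1 these are Slc16a3 and 5 fast-fibre genes, of which Tnni2 is labelled, and 0 of 5 adipocyte genes passed.

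The genes whose values over the 4 arrays lay nearest to those of Gpd1, by root mean square difference of log2 values centred on the control mean, were Pfkfb1 (0.06), Klf10 (0.08), Gadd45a (0.09), Txnip (0.10) and Cited2 (0.11). Pfkfb1, a kinase and phosphatase that makes and removes fructose 2,6-bisphosphate, read 491 and 474 in unloaded pools, against 192 and 188 in control pools. The distance was measured on 1 probe set per gene. It can be small only where the log2 difference is near that of Gpd1. A rise on the near probe sets thus follows from how they were picked. Klf10 gave 1.41 on a brighter probe set against 1.18 on the near one, and Txnip 1.19 against 1.29, and all of these passed by limma. For the other genes probe sets differed more. The 3 dimmer Pfkfb1 probe sets gave log2 differences of -0.25 to 0.50 and did not pass. Both brighter Cited2 probe sets gave 0.64 against 1.39 on the near one. Gadd45a gave 0.87 on its brightest probe set, 1.14 on the next and 1.65 on the dimmest, against 1.19 on the near one. Among the other shuttle genes the distance from Gpd1 was smallest for Got1 (0.60) and largest for Mdh1 (1.00). This order describes 4 arrays.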

How the data were processed

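RNA of 2 unloaded and 2 control soleus pools was labelled and hybridised to Affymetrix arrays. The authors deposited 1 intensity per probe set and array, made with MAS5 per the submitters' processing notes, which give no version or settings. These deposited intensities are linear and share a common trimmed mean, and comparing them assumes a like total signal in each pool. Of 8799 probe sets, 59 array controls were left out. Probe sets were named through the platform annotation, with symbols updated by gene ID to RefSeq (GRCr8): 7006 had 1 symbol, 308 several and 1426 none. No coordinates were used. Signals were taken as log2(signal + 9), 9 being the 25th percentile, and probe sets with a mean of at least 21.0 (40th percentile) were tested, 5257 in all.

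The test was limma's (version 3.58.1, under R 4.3.3; lmFit, eBayes with a mean-variance trend, 2 residual and 5.80 prior degrees of freedom) and Benjamini-Hochberg adjustment over all tested probe sets. The steps were tested on simulated data. Whether the pools of a group share rats is not stated, and p-values measure the spread between pools. The named genes were all shuttle probe sets, members of the neighbouring lists that passed or had the smallest p-values, cell type markers, and the 5 genes nearest to Gpd1. A few neighbouring genes with larger p-values, such as Ldhb and Gpam, were named besides these. Members and lists were chosen with earlier results of these data known. Alternatives changed the normalization, offset, filter, variance model, threshold, pool block and arrays used; leaving out arrays for list genes was added after the data were seen. Plots were made in Python 3.11.15 (matplotlib 3.10.9).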

Additional observations from a re-analysis of the deposited data

How the results depend on the processing

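Of 129 values of single shuttle probe sets under other settings, 124 kept their direction and side of the threshold. Gpd1 passed in 10 of 12, from 0.85 (offset at the 50th percentile) to 1.42 (offset at the 10th), with limma adjusted p from 0.00278 to 0.0822, and lost its call without control pool 2 or unloaded pool 1. Gpd2 turned to -0.077 and -0.013 without those same arrays, over a range of -0.077 to 0.17 with an array left out. A filter at the 60th percentile, 57.2, removed Gpd1 (mean 52.2) and let Got1 pass, so the shuttle count of 1 there is another gene. The count of higher shuttle probe sets was 0 to 1 with an array left out and 2 (Gpd1 and Got1) at an adjusted p under 0.10, and the count of lower ones was 0 in every setting run. Over all probe sets, 136 higher and 140 lower became 42 and 48 without a filter, 52 and 61 without a mean-variance trend, 226 and 232 at an adjusted p under 0.10, and 22 to 43 and 38 to 55 with 1 array left out, where a lone array is assumed to vary like the other group. With the pool number as a replicate block the counts were 78 and 87, and Gpd1 passed (1.26, adjusted p = 0.0230). The deviations of same-numbered pools correlated at -0.04, so the numbers are not known to pair the pools. With 2 pools a group and no detection calls, small changes of the dim Gpd2 probe sets could not be judged.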
